A study of Mus musculus with 6 samples.

Results

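The genes described here are the 9 that make, package, recapture and break down the inhibitory transmitters of the cerebellum: *Gad1*, *Gad2*, *Slc32a1*, *Slc6a11*, *Slc6a13*, *Slc6a5*, *Slc6a9*, *Abat* and *Aldh5a1*. They were taken by gene name from a count table of 54532 genes, and each name matched 1 row. All 9 passed the filter on low counts that left 17505 genes for testing. RNA came from whole cerebella of mice at postnatal day 1 (P1), in 3 libraries labelled control and 3 labelled mutant. Control animals were littermates of genotype Tox3f/f, which carry the floxed *Tox3* allele without Cre. Mutant animals were *Nestin-cre;Tox3f/f*, in which Cre recombinase is driven by the Nestin promoter throughout the nervous system. All 3 mutants and no control carried the Cre transgene, so effects of Cre and of the deletion cannot be told apart. The study describes loss of *Tox3* from all neural cell types with this driver. Activity of Cre in vessels or meninges was not tested here.

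Each library held 15391854 to 17178478 counts, and the 9 genes together accounted for 14359 to 23232 of them. The targeted gene *Tox3* was counted at 64.3, 63.0 and 64.4 CPM (counts scaled to a common library size by trimmed-mean normalization, TMM) in control 1, 2 and 3 and at 55.3, 63.2 and 59.2 CPM in mutant 1, 2 and 3. Its log2 fold change was −0.11 (SE 0.06, adjusted p = 0.252 by edgeR's quasi-likelihood test) and the groups overlapped. The count spans every exon and the sources used here do not name the deleted one, so it does not check the labels, and "mutant" below means a library labelled mutant. The libraries held both sexes in each group: the Y-linked *Ddx3y* was counted in control 1, mutant 1 and mutant 3, and *Xist* lay between 1983 and 2419 CPM in the other three. Markers of granule neurons and Purkinje cells were present in every library, as the tissue label says, while 16 *Hox* genes of hindbrain and spinal cord summed to no more than 3.24 CPM. Choroid plexus markers were uneven, from 37.5 CPM in mutant 2 to 787 CPM in mutant 3.

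γ-Aminobutyric acid (GABA) is made from glutamate by the glutamate decarboxylases encoded by *Gad1* and *Gad2*. *Slc32a1* encodes the vesicular inhibitory amino acid transporter, which loads both GABA and glycine into synaptic vesicles. After release the transmitters are recaptured by sodium-coupled transporters of the Slc6 family, and GABA is broken down in mitochondria by GABA transaminase (*Abat*) and succinate semialdehyde dehydrogenase (*Aldh5a1*). In the cerebellum, Purkinje cells and the molecular layer interneurons use GABA, Golgi cells use GABA and glycine, and granule neurons use glutamate. Cerebellar GABAergic neurons arise from progenitors that express *Ptf1a*, whereas granule neurons arise from progenitors that express the basic helix-loop-helix factor *Atoh1*.

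Basic helix-loop-helix factors bind E-boxes, and the stretches before the start sites of the genes for GABA synthesis, vesicular loading and glial uptake are shown with each E-box (CANNTG) in capitals. They are RefSeq sequences of GRCm38.p6, plus strand, 5′ to 3′, and only bases outside protein-coding exons are given. The stretches run from chr2:70561879-70562041 for *Gad1*, chr2:22622077-22622204 for *Gad2*, chr2:158610508-158610757 for *Slc32a1* and chr6:114130991-114131240 for *Slc6a11*.
Gad1: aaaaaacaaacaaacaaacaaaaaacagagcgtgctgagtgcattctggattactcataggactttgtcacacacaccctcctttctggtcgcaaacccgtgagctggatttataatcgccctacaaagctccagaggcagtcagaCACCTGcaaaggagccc
Gad2: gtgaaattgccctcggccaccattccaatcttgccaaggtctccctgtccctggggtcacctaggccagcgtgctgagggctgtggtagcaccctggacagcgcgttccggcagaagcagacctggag
Slc32a1: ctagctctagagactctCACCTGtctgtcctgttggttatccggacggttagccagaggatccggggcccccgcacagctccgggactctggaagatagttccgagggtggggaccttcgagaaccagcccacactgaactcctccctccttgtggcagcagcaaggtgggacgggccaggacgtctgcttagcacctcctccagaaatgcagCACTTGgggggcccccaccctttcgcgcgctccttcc
Slc6a11: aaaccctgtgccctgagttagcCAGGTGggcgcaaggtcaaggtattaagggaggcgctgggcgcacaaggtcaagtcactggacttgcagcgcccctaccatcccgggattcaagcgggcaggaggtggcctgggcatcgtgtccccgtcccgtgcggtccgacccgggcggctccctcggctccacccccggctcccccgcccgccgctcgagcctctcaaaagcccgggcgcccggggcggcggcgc
The *Gad1* and *Slc32a1* stretches both hold the word CACCTG, and that of *Slc6a11* holds its reverse complement CAGGTG. RefSeq windows of 300 bases (250 before and 50 after the start) were found for 8 of the 9 genes, 13 windows in all, and *Abat* had none in the table. CANNTG was in 10 of these 13 windows and in 72.3% of all 32851 windows. CAGCTG was in 1 of the 13 windows against 16.3% of all windows. CAGATG, read on either strand, was in 3 against 17.2%, among them the window of *Gad2*. The 4 windows shown were rich in G and C, from 60.0% in *Gad1* to 72.3% in *Slc6a11*, where the median of all windows was 52.67%. Their CpG dinucleotides were at 0.543 to 0.849 of the frequency that base composition gives, against a median of 0.3836.

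All 9 genes were higher in the mutant cerebellum, and in each of them every mutant library lay above every control library. Such separation upwards was found in 20.4% of all tested genes. A gene was called where its adjusted p was under 0.01 and its log2 fold change exceeded 0.5 in either direction. By this rule 5 of the 9 genes were called higher, *Gad1*, *Gad2*, *Slc32a1*, *Slc6a11* and *Slc6a5*, where 3.03% of all tested genes were called higher. None of the 9 was called lower, by edgeR or DESeq2, and none was lower at an unadjusted p under 0.05, where 3.63% of tested genes were called lower. Without the fold change threshold, 8 of the 9 were higher at an adjusted p under 0.01, against 6.55% of tested genes. Their median log2 fold change was 0.54 and that of all tested genes −0.01. Together the 9 genes rose from 937 ± 3.34 to 1325 ± 44.1 CPM (SD, n = 3 in each group). CPM are shares of a library. In RNA of whole tissue, more cells of a type, more RNA per cell and less RNA of other cells cannot be told apart.

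**Figure D1:**
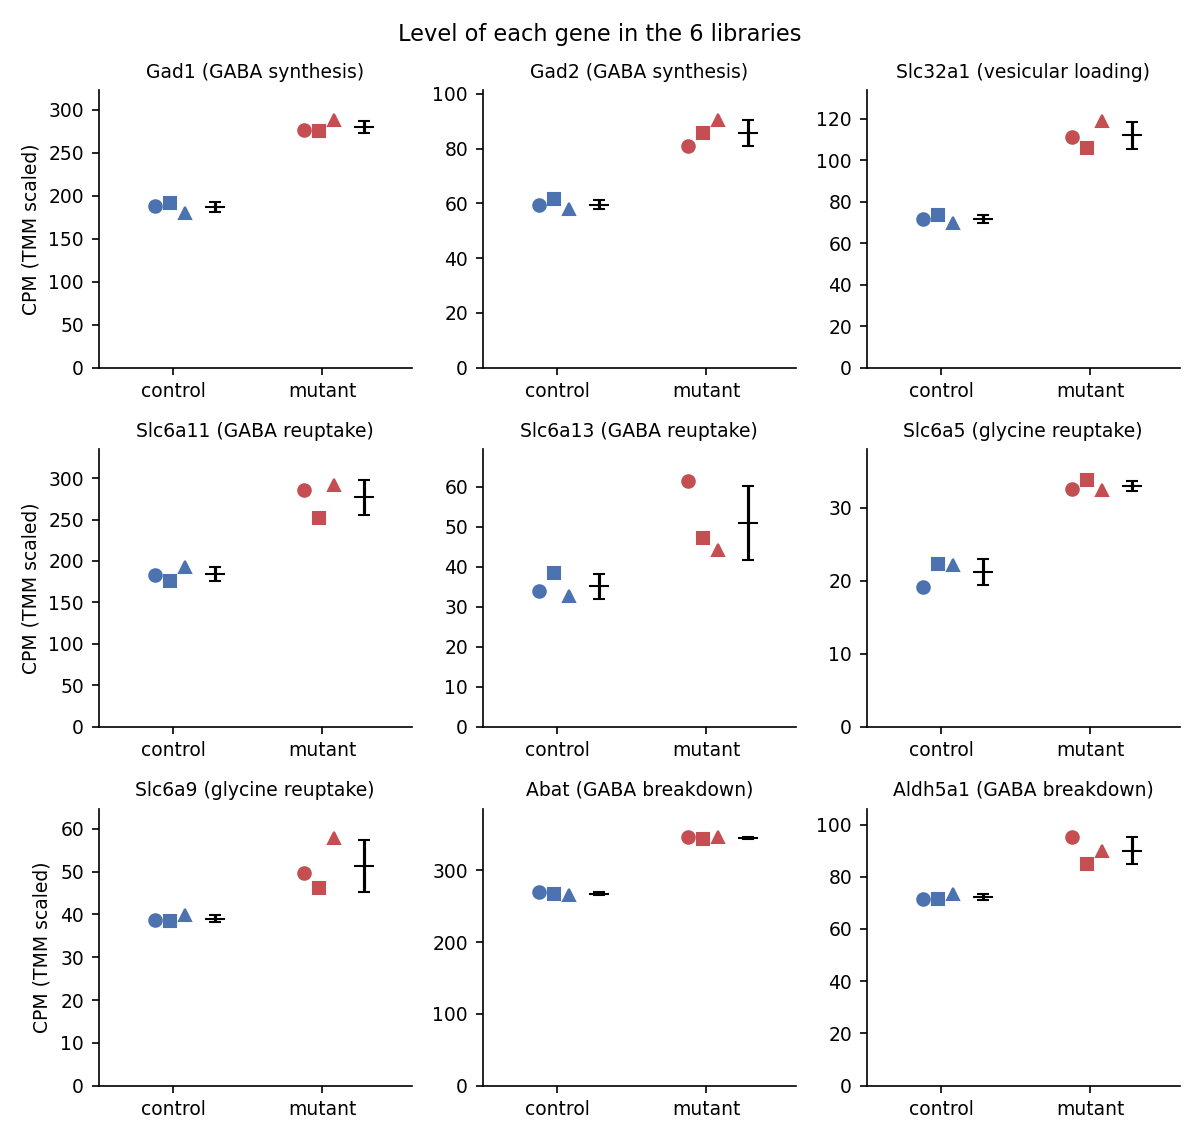
CPM (TMM scaled) of each of the 9 genes in the 3 control libraries (blue) and the 3 mutant libraries (red), with circles, squares and triangles for replicates 1, 2 and 3 and the mean ± SD beside them. In every panel the 3 mutant points lie above the 3 control points, and the Slc6a13 mutants run from 44.1 to 61.5 CPM, with replicate 1 apart from the other two.

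The genes of GABA synthesis both rose. *Gad1* (ENSMUSG00000070880, GRCm38 chr2:70553072-70602014, plus strand) was counted at 188, 192 and 180.3 CPM in controls 1 to 3 and at 276, 276 and 288 CPM in mutants 1 to 3. The groups stood well apart, with a gap many times the spread within either one. *Gad1* rose by a log2 fold change of 0.58 (SE 0.04, adjusted p = 2.6e-05, edgeR's quasi-likelihood test, adjusted by Benjamini-Hochberg over all tested genes, as for every adjusted p below). *Gad2* (ENSMUSG00000026787, chr2:22622205-22693874, plus strand) encodes the other decarboxylase, which is enriched at nerve terminals. Its levels were 59.2, 61.5 and 58.0 CPM in the controls and 80.9, 85.8 and 90.3 CPM in the mutants, again without overlap. It rose 1.44-fold (log2 0.52, SE 0.06, adjusted p = 0.000271). This lies close to the fold threshold, and without mutant 3 the log2 fold change was 0.48 and *Gad2* was no longer called.

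The gene of the vesicular transporter rose in the mutants. *Slc32a1* (ENSMUSG00000037771, chr2:158610767-158615748, plus strand), a compact gene of 2 exons, was counted at 71.6, 73.4 and 69.7 CPM in the controls. In the mutants it reached 111, 106 and 119 CPM. It rose 1.56-fold (log2 0.65, SE 0.06, adjusted p = 6.61e-05). Over 697 exonic bases it overlaps the antisense gene *Gm14205*, which itself had 1 to 6 counts per library against at least 1085 for *Slc32a1*. No source used here gives the strand setting of the count, so reads of genes on opposite strands may be shared.

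Reuptake of GABA was represented by *Slc6a11* and *Slc6a13*. *Slc6a11* (ENSMUSG00000030307, chr6:114131241-114249952, plus strand) encodes the GABA transporter found mainly on astrocytes. Controls had 183, 176 and 193 CPM and mutants 286, 252 and 292 CPM, with mutant 2 the lowest of its group and still well above control 3. It rose 1.504-fold (log2 0.59, SE 0.06, adjusted p = 0.00017). *Slc6a13* (ENSMUSG00000030108, chr6:121300227-121337733, plus strand) encodes a GABA and taurine transporter known from the leptomeninges and from liver and kidney. Controls lay at 33.9, 38.5 and 32.7 CPM, and mutants at 61.5, 47.2 and 44.1 CPM, so that mutant 1 stood apart from the other two. Its log2 fold change was 0.54 (SE 0.12) with an adjusted p of 0.0104, and it was not called. Without mutant 1 the log2 fold change was 0.38 (adjusted p = 0.0265). It passed the rule without mutant 2 (0.60, adjusted p = 0.00749) and without mutant 3 (0.64, adjusted p = 0.00899). The 12 meninges markers summed to 964 to 997 CPM in the controls and to 1654, 1360 and 1211 CPM in mutants 1, 2 and 3, the same order as *Slc6a13*. Of these markers 5 were called higher and 0 lower (none lower at an unadjusted p under 0.05, and 0 by DESeq2), among them the collagen genes *Col1a2* (167 to 285 CPM, log2 0.77, SE 0.07) and *Col1a1* (97.5 to 176 CPM, log2 0.85, SE 0.09) and the growth factor gene *Igf2* (16.3 to 28.7 CPM, log2 0.82, SE 0.13). Over the 12 markers the median log2 fold change was 0.65, with 9 fitted higher and 3 lower. *Col3a1*, the most counted of them in the controls and named here after its value was seen, was level (337 and 335 CPM, log2 −0.01). The part of the meninges in the level of *Slc6a13* was not tested.

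Glycine reuptake is carried out by the products of *Slc6a5*, the neuronal transporter of glycinergic cells, and *Slc6a9*, which is found mainly on glia. *Slc6a5* (ENSMUSG00000039728, chr7:49910146-49963856, plus strand) was counted at 19.2, 22.3 and 22.2 CPM in the controls and at 32.6, 33.8 and 32.5 CPM in the mutants. It rose 1.55-fold (log2 0.64, SE 0.09, adjusted p = 0.000643), and the mutants were closer to each other than the controls were. *Slc6a9* (ENSMUSG00000028542, chr4:117834506-117875198, plus strand) lay at 38.7, 38.5 and 39.9 CPM in the controls and at 49.8, 46.1 and 57.9 CPM in the mutants. Controls were nearly level while mutant 3 stood above mutants 1 and 2. Its log2 fold change of 0.39 (SE 0.09, adjusted p = 0.00968) was below the fold threshold. Without mutant 3 it was 0.30 with an adjusted p of 0.0347. *Slc6a9* shares 1429 exonic bases with *Ccdc24* on the other strand, which had 21 to 44 counts per library, and 46 with *B4galt2*, which had 1609 to 2531.

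Both breakdown genes were higher in the mutants and below the fold threshold. *Abat* (ENSMUSG00000057880, chr16:8513429-8621568, plus strand) was the most heavily counted of the 9, with 269.5, 268 and 266 CPM in the controls and 347, 344 and 346 CPM in the mutants. Neither group spanned more than a few CPM. The log2 fold change was 0.37 (SE 0.04, adjusted p = 0.000213), a rise of 29.1% that stayed below the fold threshold. *Aldh5a1* (ENSMUSG00000035936, chr13:24907579-24937661, minus strand) was counted at 71.5, 71.4 and 73.5 CPM in the controls and at 95.3, 84.9 and 89.7 CPM in the mutants. Its log2 fold change was 0.32 (SE 0.06, adjusted p = 0.00327). Of the 6 fits that each left out 1 library, *Slc6a9* and *Aldh5a1* had an adjusted p under 0.01 only in that without mutant 2, and in the others it lay at up to 0.0357 and 0.0177. *Aldh5a1* shares 796 exonic bases with the antisense gene *4932702P03Rik* and 203 with *9330162012Rik*, which had at most 66 counts per library.

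**Figure D2:**
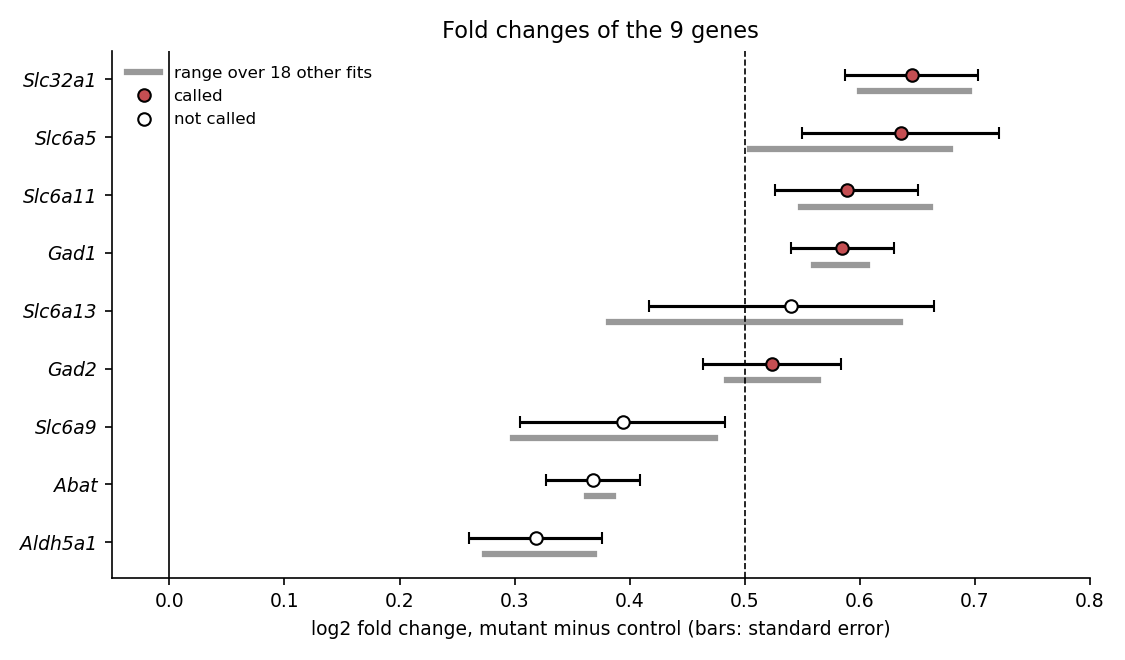
Log2 fold changes (mutant minus control) of the 9 genes from edgeR with standard errors, filled where called, and grey bars for the range over 18 other fits. The dashed line is the threshold of 0.5, and all points and ranges lie above 0, from 0.32 for Aldh5a1 to 0.65 for Slc32a1.

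Every one of the 18 other fits put all 9 genes higher in the mutants. *Gad1*, *Slc32a1* and *Slc6a11* were each called in 17 of these fits, *Slc6a5* in 16, *Gad2* in 14 and *Slc6a13* in 9. *Slc6a9*, *Abat* and *Aldh5a1* were each called in 1, the fit that used no fold change threshold. When the test was made against the threshold of 0.5 itself (edgeR's glmTreat), 0 of the 9 genes were called and 4 had an unadjusted p under 0.05, so none of the changes was shown to exceed 0.5.

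Levels of different genes were compared per length, as FPKM (fragments scaled by gene length and by library size) in the deposited table. In the controls *Slc6a11* had the highest FPKM, 36.1 ± 1.67 (SD, n = 3), followed by *Abat* with 34.3 ± 0.196. *Slc32a1* at 25.4 ± 0.672 and *Gad1* at 24.2 ± 0.757 FPKM came next and their ranges overlapped. *Aldh5a1* at 12.7 ± 0.202 and *Slc6a13* at 11.96 ± 1.04 FPKM also overlapped. Below them were *Gad2* with 10.05 ± 0.295, *Slc6a9* with 7.52 ± 0.147 and *Slc6a5* with 2.92 ± 0.243 FPKM, so the most and least abundant of the 9 differed 12.4-fold. In the mutants the first 4 kept their places, at 54.5 ± 4.48 FPKM for *Slc6a11*, 44.4 ± 0.447 for *Abat*, 39.8 ± 2.52 for *Slc32a1* and 36.5 ± 1.01 for *Gad1*, the last pair overlapping. *Slc6a13* (17.5 ± 3.22), *Aldh5a1* (15.9 ± 0.995) and *Gad2* (14.5 ± 0.798 FPKM) followed, each overlapping its neighbour. *Slc6a9* at 9.92 ± 1.197 and *Slc6a5* at 4.56 ± 0.0754 FPKM were again the lowest.

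**Figure D3:**
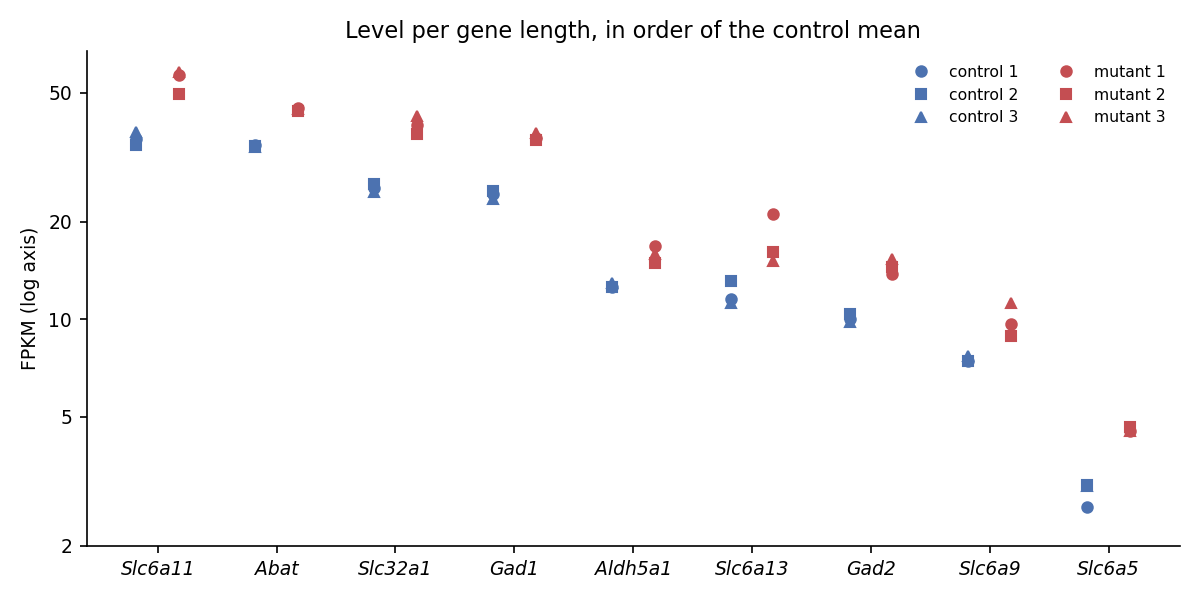
FPKM (log axis) of the 9 genes in each library, ordered by the control mean, with controls in blue and mutants in red. Slc6a11 is highest in both groups and Slc6a5 lowest. The order of the means changes only between Aldh5a1 and Slc6a13, whose values overlap in both groups.

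Ratios between members, which do not depend on library scaling, asked whether genes of one step, or of synthesis and vesicular loading, moved alike. The ratio of *Gad2* to *Gad1* counts was 0.316, 0.320 and 0.322 in the controls and 0.293, 0.311 and 0.314 in the mutants, lower in each mutant by a small amount (log2 difference −0.06, and −0.03 without mutant 1). The ratio of *Slc32a1* to the sum of *Gad1* and *Gad2* was 0.290, 0.290 and 0.292 in the controls and 0.312, 0.292 and 0.314 in the mutants (log2 difference 0.07), where mutant 2 exceeded control 3 only beyond the third decimal. In each of these the groups did not overlap and the exact permutation p was 0.1, the smallest that 20 arrangements of 3 against 3 libraries allow (two-sided; 0.2 after adjustment over the 4 ratios). For *Slc6a5* to *Slc6a9* the log2 difference was 0.25, or 0.16 without mutant 2, and the groups overlapped (exact permutation p = 0.2, adjusted 0.267).

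The other genes of GABA and glycine metabolism and transport included genes that rose and genes that fell. Of 25 such genes, all tested, 1 was called higher and 1 lower, where 3.03% and 3.63% of all tested genes were. Of the 25, 17 were fitted higher, against 8601 of all 17505 tested genes, and the median log2 fold change was 0.11. The count of genes called was 1 without control 3 and up to 3 when another library was left out, and *Shmt1* was called in each of those fits. *Shmt1*, encoding the cytosolic serine hydroxymethyltransferase that interconverts serine and glycine, fell from 21.3 ± 0.0506 to 11.8 ± 1.14 CPM (log2 −0.85, SE 0.10, adjusted p = 0.000255). At an adjusted p under 0.01 without the fold threshold, 4 genes were higher and 3 lower, against 1147 and 1268 of all 17505. The 4 genes of highest level that were not called pointed in different directions. *Slc38a1*, a glutamine transporter of neurons, went from 442 to 498 CPM (log2 0.17, adjusted p = 0.0206) and *Glud1*, glutamate dehydrogenase, from 320 to 425 CPM (log2 0.41, adjusted p = 0.000331). *Glul*, the glutamine synthetase of astrocytes, was at 388 and 357 CPM (log2 −0.12, adjusted p = 0.081) and *Odc1*, the ornithine decarboxylase of polyamine synthesis, at 276 and 217 CPM (log2 −0.34, adjusted p = 0.000876).

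Genes for the vesicular loading and uptake of glutamate were set beside those for GABA. Of 8, 2 were called higher and 0 lower, though 2 were lower at an unadjusted p under 0.05 by edgeR and DESeq2 likewise called 0 lower, and the median log2 fold change was 0.32. *Slc17a8*, a vesicular glutamate transporter gene, rose from 28.03 to 42.4 CPM (log2 0.60, SE 0.09, adjusted p = 0.00109). *Slc1a6*, the glutamate transporter of Purkinje cells, rose from 44.8 to 74.0 CPM (log2 0.72, SE 0.08, adjusted p = 0.000244). *Slc1a3*, the uptake transporter of Bergmann glia and astrocytes, went from 1281 to 1656 CPM (log2 0.37, adjusted p = 0.00022), while *Slc1a2* was level (251 and 256 CPM, log2 0.03, adjusted p = 0.804). *Slc17a6*, the vesicular glutamate transporter gene of young granule neurons and of the nuclei, had the opposite direction to *Slc32a1*, from 91.0 ± 5.62 to 65.0 ± 2.003 CPM (log2 −0.49, SE 0.06, adjusted p = 0.000459), just short of the fold threshold. *Slc32a1* counts were 0.848, 0.779 and 0.740 of those of *Slc17a6* in the controls and 1.66, 1.64 and 1.88 of them in the mutants, higher in every mutant than in any control. This ratio was chosen after the values were seen and was not tested.

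**Figure D4:**
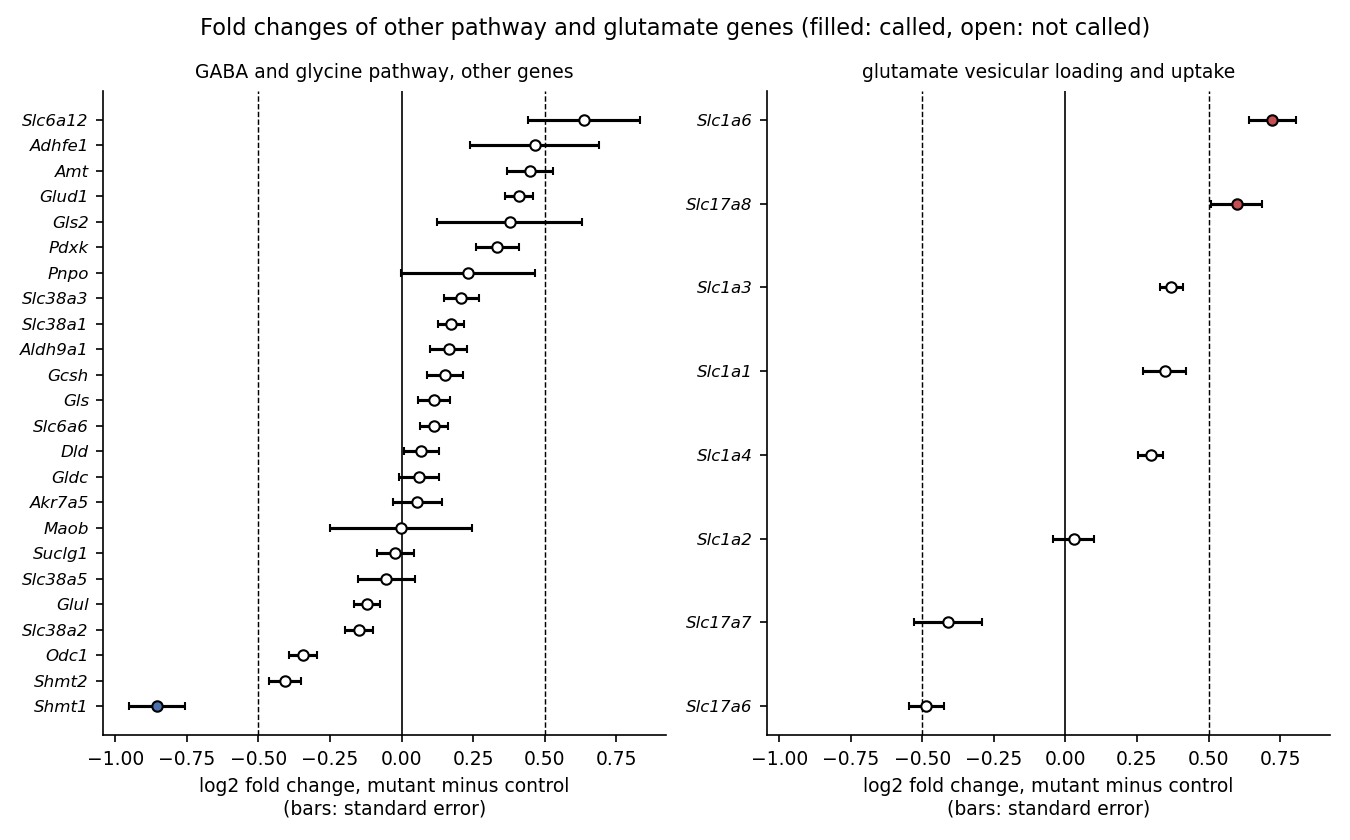
Log2 fold changes (mutant minus control, with standard errors) of other GABA and glycine pathway genes and of the 8 genes for glutamate loading and uptake, filled where called, with dashed lines at 0.5 and −0.5. Among the pathway genes shown Shmt1 (−0.85) is called, and among the glutamate genes Slc17a8 (0.60) and Slc1a6 (0.72).

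Markers of the cell types that express the 9 genes were read in the same libraries. GABAergic interneuron lineage markers summed to 687 to 695 CPM in the controls and 862 to 895 CPM in the mutants, and of 16, 4 were called higher and 1 lower (median log2 fold change 0.43). *Tfap2b*, a transcription factor of inhibitory precursors, rose from 122 to 193 CPM (log2 0.66) and *Skor2*, a corepressor of Purkinje cell differentiation, from 51.7 to 88.5 CPM (log2 0.78). With *Skor2* among them, these markers and their sum are not particular to interneurons. *Pax2*, a marker of interneuron precursors, went from 74.1 to 102 CPM (log2 0.46) and stayed below the fold threshold. At an unadjusted p under 0.05, 10 of the 16 were higher and 2 lower. *Lhx1*, a factor of Purkinje and interneuron precursors named here after its value was seen, was at 135 and 104 CPM (log2 −0.38, adjusted p = 0.000778). The marker called lower was *Ptf1a*, the determinant of the GABAergic lineage, named here after its value was seen, which fell from 4.91 ± 0.9997 to 2.16 ± 0.470 CPM (log2 −1.18, SE 0.24, adjusted p = 0.00552). Purkinje cell markers summed to 1808 to 1935 CPM in the controls and 2507 to 3024 CPM in the mutants, with 6 of 12 called higher, 0 lower (0 by DESeq2 and 0 at an unadjusted p under 0.05) and a median of 0.61. *Car8* (491 to 759 CPM, log2 0.63), *Calb1* (314 to 502 CPM, log2 0.68) and *Arhgef33* (115 to 173 CPM, log2 0.59) led them.

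Astrocyte and Bergmann glia markers summed to 3707 to 3765 CPM in the controls and 4894 to 5255 CPM in the mutants. Of 12, 5 were called higher and 0 lower (0 by DESeq2, 1 at an unadjusted p under 0.05), with a median of 0.41, led by *Gdf10* (362 to 819 CPM, log2 1.18), *Aldoc* (123 to 195 CPM, log2 0.67) and *Gfap* (40.3 to 108 CPM, log2 1.42). Granule neuron lineage markers moved the other way, from 4487 to 4567 CPM in the controls to 2709 to 2931 CPM in the mutants, with 8 of 12 called lower and none higher (0 at an unadjusted p under 0.05 and 0 by DESeq2). Their median log2 fold change was −1.05, and *Atoh1* fell from 31.8 ± 0.873 to 0.362 ± 0.186 CPM (log2 −6.40), *Barhl1* from 307 to 51.1 CPM (log2 −2.59) and *Neurod1* from 293 to 131 CPM (log2 −1.16). The part of these cell types in the levels of the 9 genes was not tested.

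The remaining marker lists were uneven. Oligodendrocyte lineage markers had 7 of 10 called higher and 0 lower (0 by DESeq2, 1 at an unadjusted p under 0.05). Their median was 0.70, with *Mbp* and *Sox10* in front (log2 0.69 and 0.97). *Pdgfra*, named here after its value was seen, was the 1 that fell, from 194 to 142 CPM (log2 −0.45, adjusted p = 0.000307). In it every mutant library lay below every control library. Of 12 endothelium and mural cell markers 1 was called higher (*Vtn*, log2 0.69), and their median was −0.11. Of 8 microglia markers 1 was called higher (*C1qa*, log2 0.59), with a median of 0.38. No erythrocyte marker was called among 5 tested by edgeR or DESeq2, and 0 had an unadjusted p under 0.05. Of 8 choroid plexus markers 7 were fitted higher, 4 of them at an unadjusted p under 0.05 by edgeR, with a median of 1.18 over the 8. None of these was called, DESeq2 called 1 higher, and *Otx2* was called lower (log2 −1.16). *Otx2* was level in mutants 1, 2 and 3 (24.7, 22.0 and 24.0 CPM), where the list summed to 227, 37.5 and 787 CPM. That sum includes *Otx2* itself, and *Ttr*, named here after its value was seen, made up 181, 6.06 and 711 CPM of it. The part of choroid plexus in the fall of *Otx2* was not tested. Of 4 midbrain markers tested *Barhl2* was called lower (log2 −1.58) and 3 were fitted higher. None of these 3 was called, and 1 had an unadjusted p under 0.05 by edgeR. The part of midbrain tissue in the fall of *Barhl2* was not tested. Between mutants 2 and 3, where the choroid plexus markers differed most, *Gad1* was at 276 and 288 CPM, *Gad2* at 85.8 and 90.3, *Slc32a1* at 106 and 119, *Slc6a11* at 252 and 292, *Slc6a9* at 46.1 and 57.9, *Abat* at 344 and 346 and *Aldh5a1* at 84.9 and 89.7, all higher in mutant 3. *Slc6a13* (47.2 and 44.1 CPM) and *Slc6a5* (33.8 and 32.5 CPM) were lower there. The part of choroid plexus RNA in these levels was not tested.

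**Figure D5:**
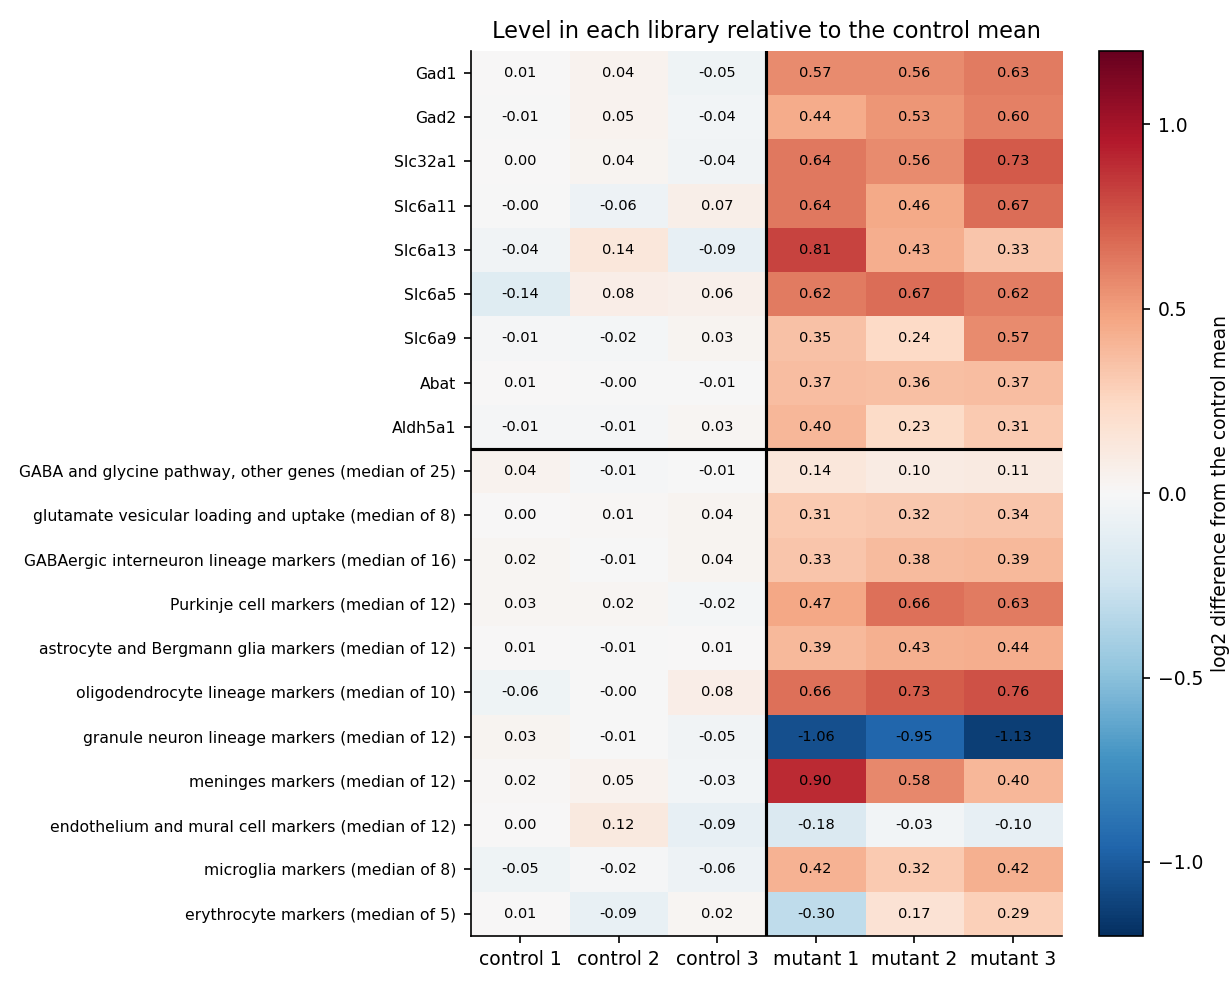
Log2 difference of each library from the control mean for the 9 genes (upper block) and the median over lists of other genes or markers (lower block), with the value in each cell. The choroid plexus, midbrain, and hindbrain and spinal cord lists are not shown. All 9 genes are above the control mean in every mutant and the granule neuron list is below it by 0.95 to 1.13. Of the rows shown, only Slc6a13 and the meninges list are highest in mutant 1 and lowest in mutant 3.

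Genes with the profile most like that of the 9 were found by Pearson's r of log2 CPM over the 6 libraries, among 11063 genes of at least 10 CPM. These values describe 2 groups of 3 libraries that stand apart, so many genes share them: 680 genes had r over 0.95 with the mean profile of *Gad1*, *Gad2* and *Slc32a1*. Nearest to this profile were *Cyp4f17* and *Cxadr* (r = 0.999 each) and *Stac* (r = 0.999). Nearest to *Slc6a11* were *Zcchc12* (0.999), *Hs6st1* (0.998) and *Gaa* (0.998), of 645 genes over 0.95. For *Slc6a5* they were *Acaa2* (0.998), *Plat* (0.997) and *Ahnak* (0.997), of 379. *Slc6a13*, with its high value in mutant 1, had 47 such genes, led by *Gpd2* (0.998), *Dynlt3* (0.993) and *Prkag2* (0.9895).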

How the data were processed

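Poly-T selected RNA of 6 P1 cerebella was sequenced as paired-end reads. The authors deposited raw counts per gene, made by removing low-quality reads, aligning to mm10 with HISAT2 2.0.5 and counting with featureCounts 1.5.0-p3 (versions from the submitters' processing notes), and FPKM values, which the authors calculated from each gene's count and length. The annotation release, strand setting and handling of multiply mapped reads are not given in the sources used here.

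Counts were fitted with edgeR 4.0.16 under R 4.3.3 (filterByExpr for low counts, TMM for scaling, the two-sided glmQLFTest on glmQLFit, Benjamini-Hochberg over all 17505 tested genes, which held 99.81% of the counts; common dispersion 0.0105). The SE of a log2 fold change is its size divided by the root of the test's F. A call needed an adjusted p under 0.01 together with a log2 fold change over 0.5 in size, as the study's methods set it. Count ratios were compared by exact permutation tests. As alternatives, DESeq2 1.42.0, limma-trend (limma 3.58.1) on log2 FPKM with pseudocounts of 1 and 0.1, other scalings, filters and thresholds, a replicate block, *Ddx3y* as a covariate and the omission of each library were run. The edgeR fit with and without the replicate block, the DESeq2 fit and limma-trend on log2(FPKM + 1) were also run on simulated counts. The other alternatives were not. Exons came from GENCODE vM21 and promoters from RefSeq, both GRCm38.

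The libraries are taken as separate animals. If they are not, p-values measure technical spread. No library was a copy of another of its group (chi-square per gene 3.63 to 10.0). The members and lists were chosen with earlier results of these data known. Genes named after their values were seen are marked where they appear. Apart from these, named were the 9 genes, *Tox3*, the called genes and at most 4 others of highest level in the pathway and glutamate lists, up to 3 markers of smallest p per cell type list, and the 3 genes most like each profile. Planned protein comparisons were not analysed here, and values of 2 other genes named by this rule, with 1 of the 4 ratios, are not reported here.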

Additional observations from a re-analysis of the deposited data

How the results depend on the processing

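All 9 genes were higher in the mutants under all 18 alternatives, and no scaling moved the median of all genes by more than 0.03 on the log2 scale. *Slc6a13*, just outside the adjusted p threshold, was called with DESeq2 (0.55), library size alone (0.56), no filter (0.55), at least 10 counts in every library (0.55), the *Ddx3y* covariate (0.52) and an adjusted p under 0.05 without a fold threshold (0.54). It ranged from 0.38 to 0.64 when single libraries were left out, and *Gad2* from 0.48 to 0.56. With limma-trend on log2(FPKM + 1), *Gad2* had 0.49 with and without a filter and was not called, and without a filter *Slc6a5* (0.50) was not called either, which left 3 of the 9. At an adjusted p under 0.05 alone all 9 were called, *Slc6a9* (0.39), *Abat* (0.37) and *Aldh5a1* (0.32) included, and 10 of the other pathway genes. Under glmTreat 0 were called, with *Gad1* at 0.58, *Gad2* at 0.52, *Slc32a1* at 0.65, *Slc6a11* at 0.59 and *Slc6a5* at 0.64, and 0 of the other pathway genes, of which 1 had an unadjusted p under 0.05. Of those genes 1 was called with the *Ddx3y* covariate, and 1 to 3 with a library left out.

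Over all genes, 635 were called lower and 530 higher. The counts were 397 and 285 with limma-trend on log2(FPKM + 1), 286 and 176 with that transform and no filter, 456 and 338 on log2(FPKM + 0.1), 824 and 730 with edgeR and no filter, 2252 and 2136 at an adjusted p under 0.05, and 145 and 30 under glmTreat, where the higher share of calls fell from 45.5% to 17.1%. Leaving out a library gave 349 (without mutant 3) to 569 (without mutant 2) genes called higher. Apart from the thresholds and the omitted libraries, the cause of these differences was not tested.

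The deviations of same-numbered libraries correlated at 0.24, 0.26 and −0.17. Not every pair was over 0.1, so the numbers were not taken to pair the libraries, and not every library correlated best with its own number. With a replicate block, 696 genes were called lower and 561 higher, and 6 of the 9 genes were called, *Slc6a13* at 0.53 with them. The block changed no other call among the 9. No blocked fit was made for the ratios. With 3 libraries a group the ratios could not reach an exact permutation p under 0.1.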
